A study of Homo sapiens with 12 samples.

Results

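The cytosolic ribosomal proteins are the protein parts of the ribosome that reads nuclear messenger RNA in the cytoplasm. Their genes were taken from the count table by symbol: RPL or RPS followed by a number, with an optional A, X or L, plus RPLP0, RPLP1 and RPLP2. This gave 79 rows for 78 symbols among 10945 rows with a symbol, 48 rows of the large (60S) and 31 of the small (40S) subunit. RPS27 stood on 2 rows, which could not be told apart and are given as row 1 and row 2. RPL17 and the paralogs RPL39L and RPS27L had no row and were not analysed here. The symbols also take in 3 paralogs that are not core subunits, RPL7L1, RPL22L1 and RPL26L1. Every row passed edgeR's filter on low counts.

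The cells were HepG2, an established wild-type human hepatoma line that is widely used as a stand-in for hepatocytes. Seeding was in EMEM for every group. From 24 h later the cells spent 96 h in 1 of 4 media, each with 10% heat-inactivated foetal bovine serum and replaced by fresh medium at 48 h. The media were EMEM, DMEM low in glucose (called LGDMEM), DMEM high in glucose (HGDMEM) and Plasmax, a medium formulated after the composition of human plasma. Each medium had 3 libraries made with a QuantSeq kit, which counts messages by their 3′ ends, and the labels do not say that the 3 were separate cultures, so p-values cover only the spread over the libraries at hand, and that spread may be technical. A result is thus that of 1 line, and of media that differ in many components together.

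Each ribosome holds 1 copy of nearly all of these proteins, the exception being the P1 and P2 stalk proteins, and their genes are spread over the chromosomes. As a class, their messages carry a 5′ terminal oligopyrimidine (TOP) tract: transcription starts at a C that is followed by a run of C and T. The mTORC1 kinase acts through this tract, by way of LARP1 and the 4E-BPs, to set how much of each message is translated and how much is kept. A change of translation alone would leave no trace in the message counts measured here.

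The start sites of 6 members are shown because they are the genes to which the results below return. They run from 40 bases before the annotated transcription start to 15 bases from it on, and capitals mark the unbroken run of C and T that holds the annotated start base. The sequences and coordinates are those of RefSeq on GRCh38.p14.
RPS18, chr6:33272035-33272089, plus strand: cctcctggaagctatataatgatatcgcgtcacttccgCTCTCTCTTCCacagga
RPS12, chr6:132814529-132814583, plus strand: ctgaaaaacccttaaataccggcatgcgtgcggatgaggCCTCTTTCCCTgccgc
RPL36, chr19:5690255-5690309, plus strand: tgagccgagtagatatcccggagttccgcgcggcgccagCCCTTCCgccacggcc
RPLP0, chr12:120201097-120201151, minus strand: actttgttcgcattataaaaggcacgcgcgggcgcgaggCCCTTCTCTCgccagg
RPS29, chr14:49598696-49598750, minus strand: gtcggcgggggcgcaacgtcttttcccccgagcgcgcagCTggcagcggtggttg
RPS27A, chr2:55231863-55231917, plus strand: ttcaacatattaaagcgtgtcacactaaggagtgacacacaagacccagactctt
RPS18, RPS12 and RPL36 were higher in Plasmax, RPLP0 passed no test, and RPS29 was the 1 member with a fall. In RPS27A, the most abundant member, the annotated start base is an A and lies in no such run.

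RefSeq promoters, of 250 bases before to 50 after the start, could be matched by symbol for 63 of the 78 genes. Of these, 46 (73.0%) had a C as the annotated start base, against 14.7% of all 35116 promoters in the table. A C followed by at least 4 more pyrimidines stood at the start of 42 (66.7%), against 4.1% of all promoters and 7.6% of the 66 matched genes of the mitochondrial ribosome. The motif CCGGAAG, read on both strands, was present in 34.9% of the 63 promoters and 10.3% of all. AAGATGGC, also on both strands, was present in 11.1% against 2.9%, and TATAA on the gene's own strand from 35 to 21 bases before the start in 11.1% against 3.6%. The pyrimidine start was about as common among the 20 matched genes called in a comparison with Plasmax (13, 65.0%) as among the 43 that were not (29, 67.4%). These matches describe the annotated starts, and starts in HepG2 were not measured.

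Counts per library on the rows with a symbol ran from 3995365 to 5840057. On these rows, ribosomal protein messages took 13.4 ± 0.50% (SD, n = 3) of the counts in EMEM, 13.0 ± 0.97% in LGDMEM, 12.4 ± 0.50% in HGDMEM and 14.1 ± 0.64% in Plasmax. The share ranged from 11.9% to 14.8% over libraries, and only HGDMEM and Plasmax did not overlap among the pairs with Plasmax. The third LGDMEM library had 14.1%, which is more than the third Plasmax library with 13.5%. That library also stood apart over all genes, at −51.8 on the second principal component against −11.0 to 14.7 for the other 11. The members' counts and medians that rest on it, and some single changes, are therefore given with and without it. Values of the markers and of the other gene lists are given only with it. The first component, with 37.1% of the variance, separated the 3 Plasmax libraries from the 9 others.

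**Figure D1:**
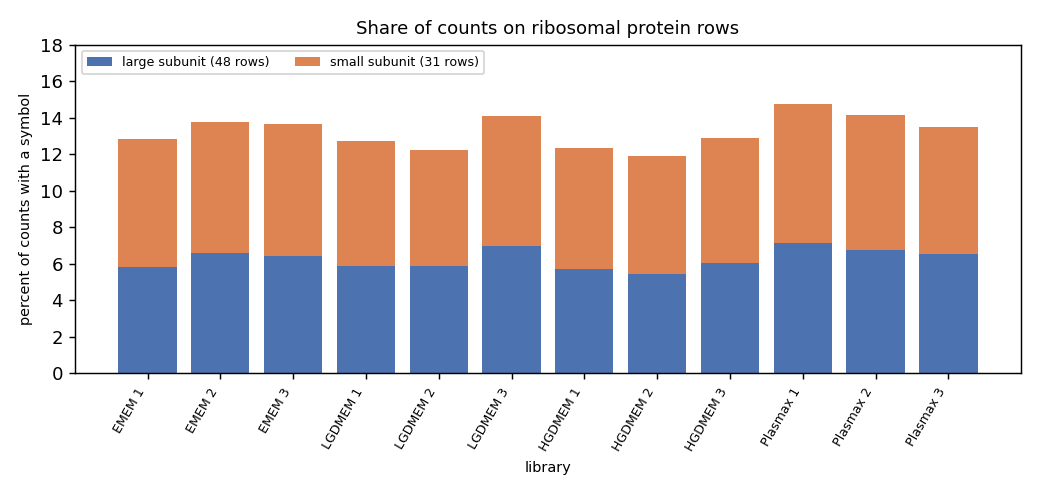
Percent of each library's counts (rows with a symbol) that fell on ribosomal protein rows, with the large subunit below and the small subunit on top. The 12 libraries lie between 11.9% and 14.8%, and the third LGDMEM library reaches 14.1%.

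Of 10 hepatocyte and hepatoma markers, all were present, and their summed level was 15456 to 17026 CPM (each count over the scaled library size, per 1e6) in the Plasmax libraries and 26900 to 32546 in the others. The sum does not stand for every marker: against EMEM, LGDMEM and HGDMEM in turn, 1, 2 and 1 of the 10 were called higher and 7, 6 and 6 lower. The log2 fold change was −0.99, −1.15 and −1.36 for ALB and −1.73, −1.51 and −1.80 for AFP, which were called lower, and 0.57, 0.48 and 0.52 for SERPINA1, which was called higher. APOB, at 0.20, −0.048 and 0.045, passed no test. Of 8 leukocyte markers 3 had a row, and nearly all of their level came from LYZ. Without it they summed to at most 19.3 CPM. With it the sum was 1966 to 2194 CPM in Plasmax, 2657 to 3294 in EMEM, 2122 to 2885 in LGDMEM and 2710 to 3159 in HGDMEM. In Plasmax, 1 of the 3 was called higher and 1 lower against EMEM, 0 were called against LGDMEM, and 1 was called lower against HGDMEM. Of 10 endothelial and stromal markers 3 had a row (ACTA2, PDGFRB and COL1A1), at 69.4 to 94.9 CPM in Plasmax and 34.2 to 65.4 in the other media. Their changes did not share a direction: ACTA2 had 0.81, 1.14 and 0.53, of which the first 2 were called, PDGFRB was called lower at −1.59, −1.74 and −1.38, and COL1A1 was called only against HGDMEM, at 2.75. PTPRC, CSF1R, PECAM1, VWF and CDH5 had no row. Several markers therefore changed with Plasmax, as the results below do, in both directions, and their part in those results was not tested. In bulk RNA, fewer cells of a type and less RNA per cell cannot be told apart, and CPM is a share of the messages, not an amount per cell.

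The members differed widely in level. Because the kit counts about 1 fragment per message, CPM was not divided by length. The median member had 1064 CPM over the 12 libraries, 5 members exceeded 5000 CPM and 4 lay under 50. The most abundant was RPS27A, made as a fusion with ubiquitin that is then cut off, with 8367, 9219 and 9497 CPM in EMEM, 9047, 8964 and 9247 in LGDMEM, 8609, 8097 and 9174 in HGDMEM and 10749.6, 10903 and 9561 in Plasmax. Its 3 Plasmax libraries were the highest of the 12. RPS12, at the beak of the small subunit, and RPL26, near the exit of the peptide tunnel, came next with means of 8561 and 7103 CPM. At the other end, RPL21 had 13.1, 10.1 and 8.41 CPM in EMEM, 5.55, 7.67 and 6.79 in LGDMEM, 11.6, 9.10 and 18.8 in HGDMEM and 6.80, 7.96 and 9.72 in Plasmax. RPS26, which lines the channel by which the message leaves the small subunit, had 11.4, 11.2 and 15.6 CPM in EMEM, 20.2, 11.99 and 11.1 in LGDMEM, 15.2, 10.8 and 20.5 in HGDMEM and 16.5, 18.01 and 24.2 in Plasmax. The paralog RPL26L1 had 22.3, 22.1 and 23.8 CPM in EMEM, 25.5, 24.96 and 32.4 in LGDMEM, 29.3, 23.7 and 32.1 in HGDMEM and 17.5, 27.1 and 22.1 in Plasmax. The Plasmax libraries of these 3 overlapped those of each other medium, except that RPS26 lay above EMEM, and none of the 3 passed a test.

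Plasmax was first compared with EMEM, the medium in which the cells had been kept. A gene was called where edgeR's quasi-likelihood test, fitted to all 10945 genes and 12 libraries, gave a Benjamini-Hochberg adjusted p under 0.05. Of the 79 rows 9 were called, which is 11.4%, while 22.1% of all genes were called. Higher in Plasmax were 8 (10.1% of members, against 10.0% of all genes) and lower was 1 (1.27%, against 12.1% of all genes). The 8 that rose were RPS18, RPS12, RPL37, RPL36, RPL23, RPS20, RPL39 and RPS25, and RPS29 fell. The median log2 fold change over the 79 rows was 0.091, with 49 above 0. That of all genes was 0.015, with 5602 of 10945 above 0. The members' call count fell to 5 without the first Plasmax library and to 5 without the second, and their median to 0.023 without the first EMEM library.

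Against LGDMEM, 6 members were called (7.59%, against 21.2% of all genes). All 6 were higher in Plasmax, where 9.48% of all genes were, and 0 were lower, where 11.7% of all genes were. They were RPS18, RPS12, RPL37, RPL23, RPS20 and RPL36A. The median over the members was 0.11, with 51 of 79 above 0, beside 0.0015 for all genes, with 5488 of 10945 above 0. The third LGDMEM library weighed on this comparison: without it 16 members were called, all higher in Plasmax, and the median was 0.21. Without the first Plasmax library the count was 3 and the median 0.064, and without the first or second LGDMEM library the median was 0.067 or 0.054.

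Against HGDMEM, 23 members were called (29.1%, against 26.9% of all genes). Each of the 23 was higher in Plasmax, a direction that 12.8% of all genes took, and 0 were lower, against 14.1% of all genes. The members' median was 0.17, with 65 of 79 above 0, and that of all genes was 0.014, with 5575 of 10945 above 0. The 23 comprised 14 of 48 rows of the large subunit and 9 of 31 of the small. The count was 13 without the second HGDMEM library and 14 without the first Plasmax library. The comparisons with Plasmax use the same 3 Plasmax libraries, so their calls are not independent of each other, and they are given side by side.

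**Figure D2:**
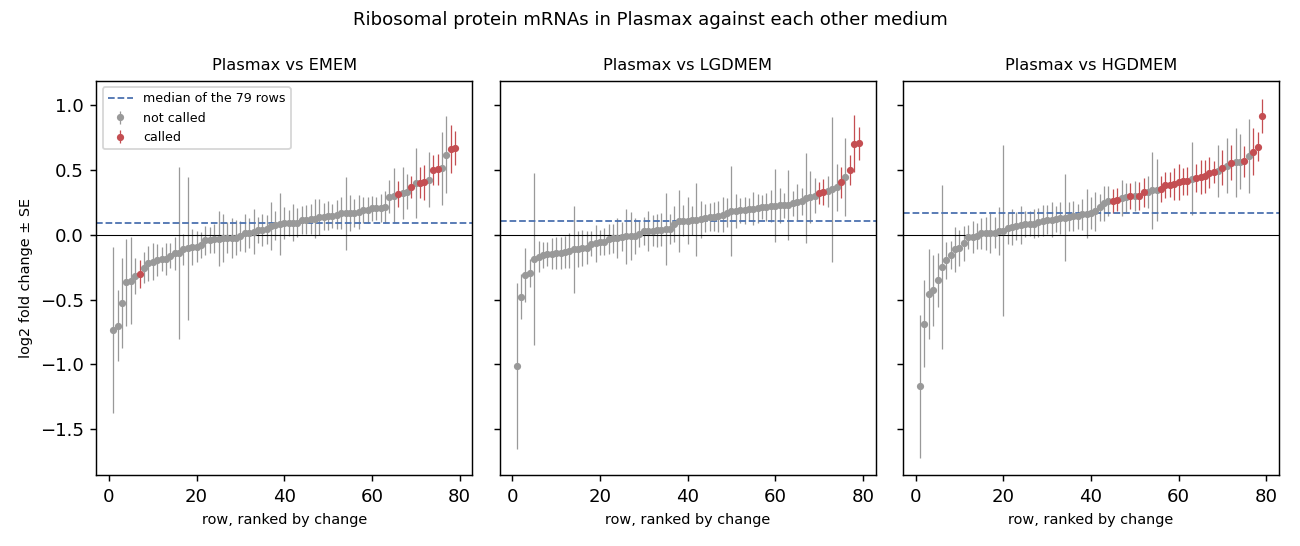
Log2 fold change (Plasmax minus the other medium, ± SE) of the 79 ribosomal protein rows, ranked within each comparison, with called rows in red and the members' median dashed. The called rows number 9, 6 and 23, and apart from RPS29 against EMEM they all lie above 0.

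Over the 4 media together, 13 members were called (16.5%, against 22.9% of all genes). The count was 24 without the third LGDMEM library. It was 8, 7, 6, 6, 5 and 8 without the third EMEM, the first HGDMEM, the second HGDMEM, the first Plasmax, the second Plasmax and the third Plasmax library in turn. All 3 Plasmax libraries lay above all 9 others for 9 members (11.4%), against 10.9% of all genes. They lay below all 9 others for 0 members, against 11.3% of all genes.

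RPS18, a protein of the head of the small subunit, had the smallest p of the members. It had 720.2, 637 and 775 CPM in EMEM, 642, 619.6 and 819 in LGDMEM, 590.01, 521 and 684 in HGDMEM and 1117, 1112 and 1163 in Plasmax. The 3 Plasmax libraries lay close together and above every other library. The log2 fold change was 0.67 ± 0.13 (SE) against EMEM, 0.70 ± 0.13 against LGDMEM and 0.92 ± 0.13 against HGDMEM, with adjusted p (edgeR) of 0.00114, 7.78e-04 and 4.31e-05. All 3 calls were kept in each of 24 alternative settings. Much of its 3′ end is shared with other annotated genes (70.9% of 50-base words in the last 200 bases, in 3 other genes), so its level is uncertain where the counting could split such reads.

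RPL37, a zinc-binding protein of the large subunit, had 1111, 1131 and 1272 CPM in EMEM, 1117, 1048 and 1350.3 in LGDMEM, 1047, 931 and 1121 in HGDMEM and 1704, 1616 and 1644 in Plasmax. Again the Plasmax libraries were above all 9 others, with log2 fold changes of 0.50 ± 0.11, 0.50 ± 0.11 and 0.68 ± 0.11 against EMEM, LGDMEM and HGDMEM. The adjusted p (edgeR) was 0.00405, 0.00416 and 2.40e-04, and the calls were kept in each of 24 settings. RPS12 had 7827, 8099.9 and 8282 CPM in EMEM, 8336, 7982 and 8626 in LGDMEM, 7465, 7045 and 7844 in HGDMEM and 10597, 10804 and 9829 in Plasmax. It was the second most abundant member, and its Plasmax libraries also lay above the rest. Its log2 fold changes were 0.37 ± 0.084, 0.32 ± 0.084 and 0.48 ± 0.084, with adjusted p (edgeR) of 0.00402, 0.00939 and 3.30e-04, and the call against LGDMEM was lost when only those 2 media were fitted.

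RPL23, a protein of the face of the large subunit that also binds MDM2, had 1962, 2301 and 2414 CPM in EMEM, 2163, 1922 and 2583 in LGDMEM, 1961, 1774 and 2216 in HGDMEM and 2958, 3006 and 2859 in Plasmax. Its libraries in Plasmax were above the 9 others, with the third LGDMEM library the nearest of those. The changes were 0.40 ± 0.12, 0.40 ± 0.12 and 0.57 ± 0.12. RPL36, of the large subunit, had 524, 618 and 610.05 CPM in EMEM, 573, 631 and 768 in LGDMEM, 619, 556 and 608 in HGDMEM and 804, 822 and 860.1 in Plasmax. Here too there was no overlap with Plasmax, but the change of 0.33 ± 0.12 against LGDMEM missed the threshold (adjusted p = 0.0529, edgeR), while 0.50 ± 0.12 against EMEM and 0.48 ± 0.12 against HGDMEM passed it. RPS20, a protein of the head of the small subunit, had 1165, 1008 and 1158 CPM in EMEM, 1103, 1026 and 1162 in LGDMEM, 1063, 1006 and 1102 in HGDMEM and 1391, 1371 and 1376 in Plasmax. Its Plasmax values lay close together, and its changes of 0.31 ± 0.100, 0.33 ± 0.100 and 0.38 ± 0.100 all passed. The calls of RPL23 and RPS20 against LGDMEM were each lost in 6 of 24 settings. RPL23 lost its call against EMEM without the first EMEM, the first Plasmax or the second Plasmax library, and against LGDMEM without the first LGDMEM, the second LGDMEM, the first Plasmax or the second Plasmax library. RPS20 lost its call against EMEM without the second EMEM, the third EMEM, the first Plasmax, the second Plasmax or the third Plasmax library, and against LGDMEM without the second LGDMEM, the first Plasmax, the second Plasmax or the third Plasmax library.

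**Figure D3:**
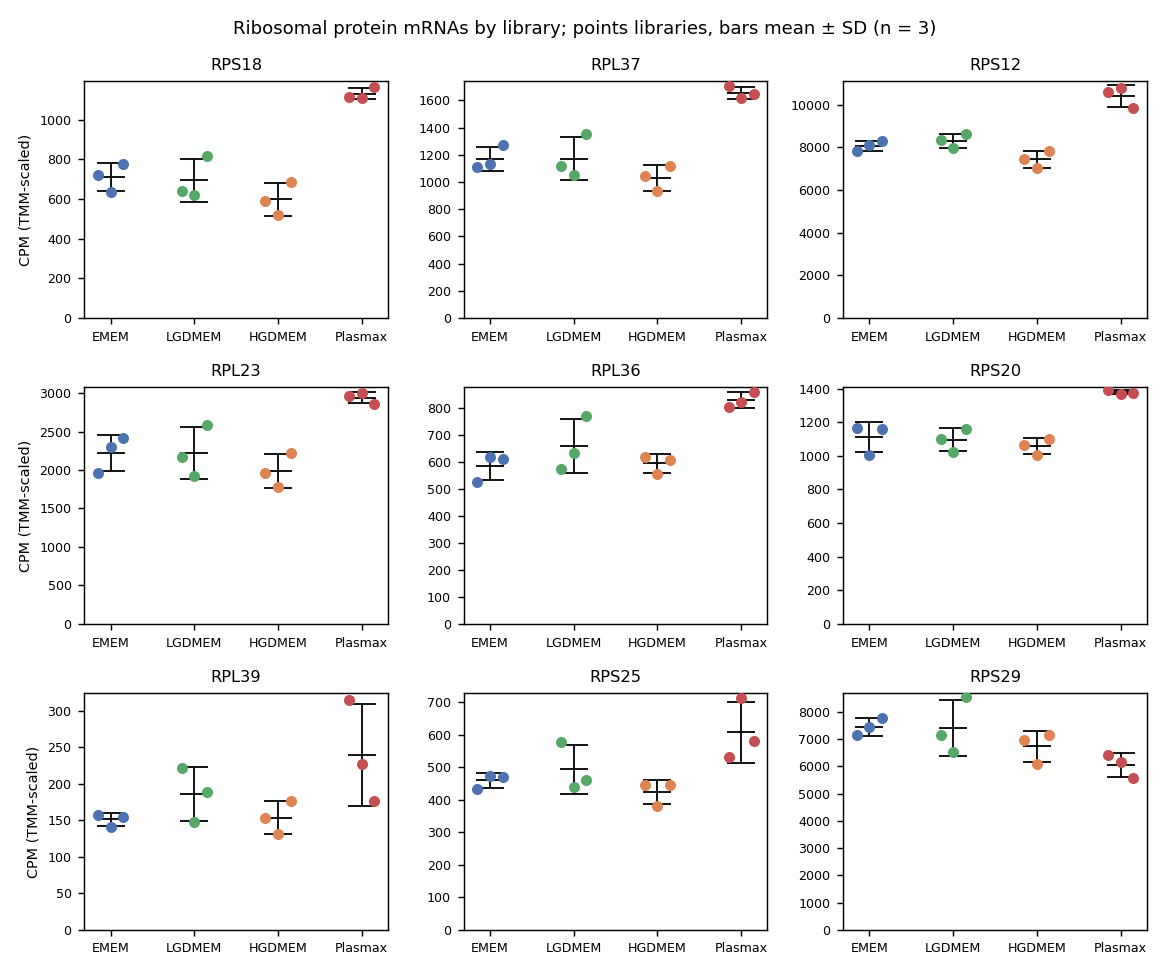
CPM (TMM-scaled, linear axes from 0) of 9 members in each library, with points for libraries and bars for the mean ± SD of 3. For RPS18, RPL37, RPS12, RPL23, RPL36 and RPS20 every Plasmax point lies above every other point, whereas for RPS29 the Plasmax points lie below those in EMEM and LGDMEM.

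RPL39, which lines the peptide exit tunnel, had 158, 141 and 155 CPM in EMEM, 222, 148 and 189 in LGDMEM, 153, 132 and 176 in HGDMEM and 315, 227 and 177 in Plasmax. The first Plasmax library was the highest of the 12 and the third overlapped LGDMEM. The call against EMEM (0.66 ± 0.18) was lost without the second EMEM or the first Plasmax library, and that against HGDMEM (0.64 ± 0.18) without the second HGDMEM or the first Plasmax library. RPS25, which internal ribosome entry sites of viruses need, had 434, 475 and 472 CPM in EMEM, 579, 441 and 462 in LGDMEM, 446, 382 and 447 in HGDMEM and 532, 713 and 582 in Plasmax. It was called against EMEM (0.40 ± 0.13) and HGDMEM (0.52 ± 0.13) and not against LGDMEM (0.30 ± 0.13, adjusted p = 0.117, edgeR), where the groups overlapped. The call against HGDMEM was lost without the second Plasmax library, and that against EMEM without the first EMEM, the second EMEM, the third EMEM, the second Plasmax or the third Plasmax library.

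The remaining members of the 15 with the smallest p over the 4 media passed against HGDMEM and missed the threshold against EMEM and LGDMEM, a contrast that was not itself tested. RPL12, at the base of the stalk, had 522, 531 and 577 CPM in EMEM, 548, 534 and 763 in LGDMEM, 472, 413 and 513 in HGDMEM and 720.5, 685 and 649 in Plasmax. The third LGDMEM library was above all 3 Plasmax libraries, and the change against HGDMEM was 0.56 ± 0.13. RPL26 had 6959, 7518 and 7647 CPM in EMEM, 6159.9, 6237 and 8011 in LGDMEM, 5933, 6035 and 6338 in HGDMEM and 8643, 8307 and 7443 in Plasmax. Its Plasmax libraries overlapped those in EMEM and LGDMEM and lay above those in HGDMEM, with a change of 0.41 ± 0.10. RPL10A, the protein of the mobile L1 stalk, had 612, 596 and 632 CPM in EMEM, 573, 574 and 696 in LGDMEM, 512, 489 and 567 in HGDMEM and 682, 718 and 723 in Plasmax. It rose by 0.44 ± 0.11 against HGDMEM.

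RPL37A, another zinc-binding protein of the large subunit, had 4449, 4955 and 5083 CPM in EMEM, 4424, 4385 and 5306 in LGDMEM, 4160.5, 3995 and 4484 in HGDMEM and 5743, 5445 and 5332 in Plasmax. All 3 Plasmax libraries lay above the rest, the lowest of them only just above the third LGDMEM library, and the change against HGDMEM was 0.39 ± 0.098. RPL32, of the large subunit, had 2545, 2679.7 and 2713 CPM in EMEM, 2466, 2383 and 2996 in LGDMEM, 2249, 2123 and 2330.4 in HGDMEM and 3282, 2995 and 2657 in Plasmax. Its change against HGDMEM was 0.41 ± 0.11, with overlap in the other 2 comparisons. RPS13, of the small subunit, had 838, 871 and 787 CPM in EMEM, 796, 826 and 1045 in LGDMEM, 633, 772 and 834 in HGDMEM and 1121, 969 and 974 in Plasmax. The change was 0.45 ± 0.13 against HGDMEM, and the call was lost without the first HGDMEM or the first Plasmax library. The 23 also included RPS27A, RPL38, RPLP1, RPS4X, RPL5, RPS6, RPL9 and RPL27, with changes from 0.26 (RPS4X) to 0.45 (RPL9). The call of RPS27A was lost without the first HGDMEM, the second HGDMEM, the first Plasmax or the second Plasmax library. That of RPL38 was lost without the first HGDMEM, the second HGDMEM, the third HGDMEM, the first Plasmax or the second Plasmax library, that of RPL27 without the first HGDMEM, the second HGDMEM, the third HGDMEM, the first Plasmax or the second Plasmax library, and that of RPL9 without the second HGDMEM library.

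Most of these misses against LGDMEM depended on the third library of that medium. Without it, RPL12 changed by 0.34 (adjusted p = 0.0434, edgeR), RPL26 by 0.39 (adjusted p = 0.0025, edgeR) and RPL10A by 0.30 (adjusted p = 0.0487, edgeR) in Plasmax against LGDMEM. RPL37A changed by 0.32 (adjusted p = 0.0127, edgeR) and RPL32 by 0.29 (adjusted p = 0.037, edgeR), whereas RPS13 still missed the threshold (adjusted p = 0.0587, edgeR). RPL36, RPS6, RPLP1 and RPS19 also passed there, with adjusted p (edgeR) of 0.00614, 0.00867, 0.00781 and 0.049. All 6 members called with the full set of libraries were called without that library too.

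RPS6, the substrate by which S6 kinase activity is usually read, had 3240.1, 3523 and 3512 CPM in EMEM, 3167, 3059 and 3781 in LGDMEM, 3073, 2889.6 and 3299 in HGDMEM and 3967, 3897 and 3969 in Plasmax. The Plasmax libraries were above all others, yet only the change of 0.35 ± 0.099 against HGDMEM passed (adjusted p = 0.0123, edgeR), and that call was lost without the second HGDMEM library. RPS4X had 2867, 3200.02 and 3099 CPM in EMEM, 2693, 3098 and 2975 in LGDMEM, 2848, 2869 and 2754 in HGDMEM and 3554, 3418 and 3178 in Plasmax. Its change of 0.26 ± 0.093 against HGDMEM passed (adjusted p = 0.045, edgeR) and was lost in 12 of 24 settings, among them those without the first EMEM, the second EMEM, the third EMEM, the second LGDMEM, the first HGDMEM, the second HGDMEM, the third HGDMEM, the first Plasmax or the second Plasmax library.

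The stalk proteins recruit the elongation factors that hydrolyse GTP. RPLP0, the anchor of the stalk and a common reference gene, had 1580.4, 1625 and 1879 CPM in EMEM, 1571, 1532 and 1881 in LGDMEM, 1533, 1387 and 1639 in HGDMEM and 1778, 1613 and 1546 in Plasmax. Each pair of media overlapped, and the changes in Plasmax were −0.042 ± 0.11, −0.014 ± 0.11 and 0.12 ± 0.11 against EMEM, LGDMEM and HGDMEM. RPLP2 had 1514, 1580.1 and 1640.4 CPM in EMEM, 1507, 1444 and 1629.9 in LGDMEM, 1444, 1283 and 1502 in HGDMEM and 1555, 1618 and 1437 in Plasmax. Its Plasmax libraries too overlapped those of each other medium, with changes of −0.038 ± 0.10, 0.0091 ± 0.10 and 0.12 ± 0.10. RPLP1, its partner in the stalk, had 1954, 2090.2 and 2266 CPM in EMEM, 1879, 1832 and 2573 in LGDMEM, 1780.4, 1747 and 2066 in HGDMEM and 2548, 2390.1 and 2398 in Plasmax. Its change of 0.39 ± 0.12 against HGDMEM passed (adjusted p = 0.0247, edgeR), and was lost without the first HGDMEM, the second HGDMEM, the first Plasmax, the second Plasmax or the third Plasmax library. Whether RPLP1 and RPLP2 differ in their change was not tested.

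RPL5 and RPL11 bind the 5S ribosomal RNA and, when not built into ribosomes, bind MDM2 and so hold back the degradation of p53. RPL5 had 2683, 3253 and 2819 CPM in EMEM, 2805, 2649.6 and 3422 in LGDMEM, 2619, 2733 and 2563 in HGDMEM and 3361, 3362 and 3030.1 in Plasmax. It was called against HGDMEM (0.30 ± 0.11, adjusted p = 0.0482, edgeR), a call lost in 12 of 24 settings, among them those without the first EMEM, the third EMEM, the first HGDMEM, the second HGDMEM, the third HGDMEM, the first Plasmax, the second Plasmax or the third Plasmax library. RPL11 had 1248, 1399 and 1439 CPM in EMEM, 1363, 1181 and 1703 in LGDMEM, 1268, 1203 and 1279 in HGDMEM and 1299, 1255 and 1225 in Plasmax. The media overlapped, and the changes were −0.11 ± 0.12, −0.17 ± 0.12 and 0.011 ± 0.12. RPL13A, another usual reference gene, had 1609.7, 1824 and 2289 CPM in EMEM, 1995, 1593 and 2461 in LGDMEM, 1725, 1718 and 2029 in HGDMEM and 1972, 1987 and 1815 in Plasmax. None of its changes, of 0.013 ± 0.15, −0.067 ± 0.15 and 0.078 ± 0.15, passed.

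RPS29, a small zinc-binding protein of the head, was the only member called lower in Plasmax, and is named here after its values were seen. It had 7137, 7439 and 7779 CPM in EMEM, 7156, 6522 and 8549 in LGDMEM, 6969, 6074 and 7160.4 in HGDMEM and 6402, 6169 and 5563 in Plasmax. The Plasmax libraries lay below those in EMEM and LGDMEM but overlapped HGDMEM. The changes were −0.30 ± 0.11, −0.29 ± 0.11 and −0.16 ± 0.11, with adjusted p (edgeR) of 0.0474, 0.0554 and 0.302. Without the third LGDMEM library, the change against LGDMEM was −0.18 (adjusted p = 0.174, edgeR). The call against EMEM was lost in 13 of 24 settings, among them DESeq2 and those without the first EMEM, the second EMEM, the third EMEM, the first HGDMEM, the third HGDMEM, the first Plasmax, the second Plasmax or the third Plasmax library.

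Some members have a paralog with a row of its own. RPL22, which is not essential and binds the RNA of its own paralog, had 276, 249 and 241 CPM in EMEM, 263, 232 and 259 in LGDMEM, 246, 264 and 259 in HGDMEM and 269.8, 276 and 303 in Plasmax. RPL22L1 had 96.4, 104 and 91.9 CPM in EMEM, 123, 136 and 154 in LGDMEM, 118, 77.96 and 125 in HGDMEM and 104, 114 and 78.96 in Plasmax. The Plasmax libraries of RPL22L1 were below those in LGDMEM, at −0.48 ± 0.17, which missed the threshold (adjusted p = 0.0578, edgeR). Without the third LGDMEM library, this change was −0.39 (adjusted p = 0.146, edgeR). RPL7, of the large subunit, had 640.1, 591 and 725 CPM in EMEM, 632, 541 and 711 in LGDMEM, 599.8, 532 and 594 in HGDMEM and 687, 636 and 603 in Plasmax. Its paralog RPL7L1 had 121, 108 and 108 CPM in EMEM, 118, 125 and 123 in LGDMEM, 122, 108 and 105 in HGDMEM and 119, 139 and 119.9 in Plasmax. Neither passed a test in any comparison.

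RPL36A was called against LGDMEM and, like RPS29, is named after its values were seen. It had 59.95, 39.2 and 72.8 CPM in EMEM, 44.2, 37.9 and 47.8 in LGDMEM, 56.8, 44.5 and 41.5 in HGDMEM and 83.01, 53.6 and 74.8 in Plasmax. The change was 0.70 ± 0.22 against LGDMEM (adjusted p = 0.0265, edgeR), beside 0.30 ± 0.21 against EMEM and 0.56 ± 0.21 against HGDMEM, where the libraries overlapped. Its near-identical copy RPL36AL, which the symbol rule leaves out, had 328, 352 and 335 CPM in EMEM, 350.1, 359 and 297 in LGDMEM, 359, 345 and 339 in HGDMEM and 209, 204 and 219.9 in Plasmax. All 3 Plasmax libraries of RPL36AL were below the 9 others, with changes of −0.68 ± 0.11, −0.67 ± 0.11 and −0.72 ± 0.11 and adjusted p (edgeR) of 2.65e-04, 3.15e-04 and 1.02e-04. The call of RPL36A was lost without the first LGDMEM, the second LGDMEM, the first Plasmax or the third Plasmax library. The changes of the copies were not tested against each other, and 68.9% of the 3′ words of RPL36A also occur in other genes.

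RPS27 row 1 had 308, 355 and 345 CPM in EMEM, 296, 251 and 257 in LGDMEM, 270.4, 335 and 395 in HGDMEM and 256, 283 and 333 in Plasmax. RPS27 row 2 had 416, 433 and 492 CPM in EMEM, 406, 338 and 548 in LGDMEM, 368, 342 and 455 in HGDMEM and 448, 415 and 457 in Plasmax. Neither passed a test, and which gene model each row stands for is not given in the sources used here.

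Among EMEM, LGDMEM and HGDMEM, 0 members were called in any comparison. Of all genes, the share called was 0.0731% for LGDMEM against EMEM. It was 0.164% for HGDMEM against EMEM and 0.0640% for HGDMEM against LGDMEM. At an unadjusted p under 0.05 there were 4, 5 and 8 of 79 members, beside 7.91%, 7.58% and 7.86% of all genes, and DESeq2 and limma voom also called 0. The smallest adjusted p of a member (edgeR) was 0.448 for RPL22L1, 0.484 for RPL26 and 0.428 for RPL12 in the same order.

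HGDMEM nonetheless had the lowest mean of the 4 media for 54 of the 79 rows, EMEM for 7, LGDMEM for 10 and Plasmax for 8. Plasmax had the highest for 43. The same counts were not made over all genes, so they are not shown to be particular to the members. The median log2 fold change of the members was −0.15 for HGDMEM against EMEM and also −0.15 against LGDMEM, with 13 of 79 above 0 in each. For all genes it was 0.0015 and −0.0011, with 5498 and 5452 of 10945 above 0. Between LGDMEM and EMEM the members' median was −0.011, with 33 of 79 above 0, beside 5464 of 10945 for all genes. This last median of the members had no stable sign, at 0.024 without the third EMEM, 0.011 without the first LGDMEM and 0.048 without the second LGDMEM library, and −0.039 without the first EMEM library. Both LGDMEM medians depended on the third library of that medium: without it, HGDMEM minus LGDMEM was −0.041 and LGDMEM minus EMEM was −0.11. Without the second HGDMEM library, the medians of HGDMEM against EMEM and LGDMEM were −0.096 and −0.093, and without the third EMEM library the former was −0.10. These small shifts in one direction describe the list and were not tested, and single members do not stand out from the spread between libraries.

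**Figure D4:**
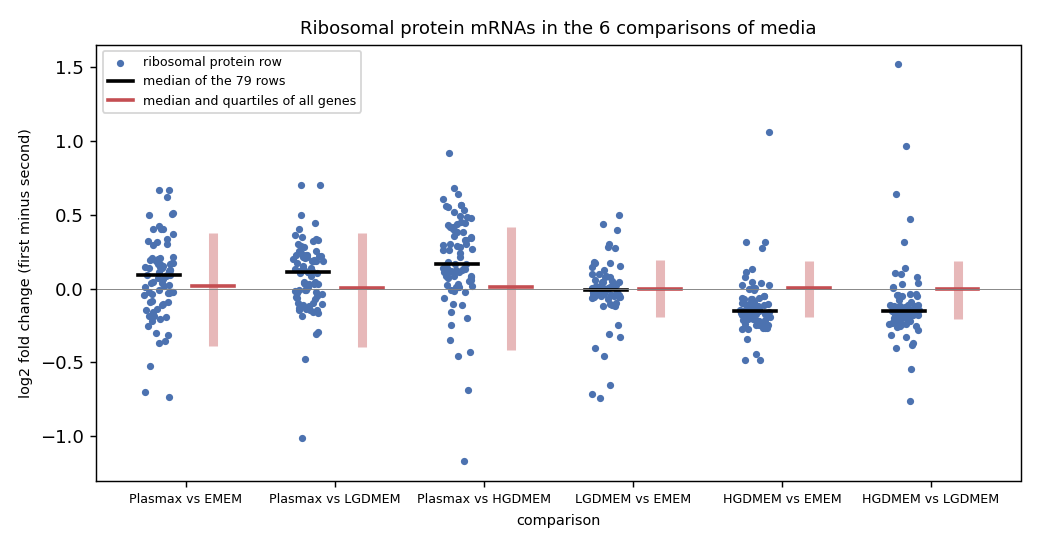
Log2 fold change (first medium minus second) of each of the 79 rows in the 6 comparisons, with their median in black beside the median and quartiles of all genes in red. The members' medians run from 0.17 (Plasmax against HGDMEM) to −0.15 (HGDMEM against LGDMEM).

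Most members were steady between libraries of a medium, and a few were not. The pooled SD of log2 CPM within a medium had a median of 0.16 over the 79 rows and 0.31 over all genes. Among rows that averaged 50 CPM or more, it was 0.16 for 75 members and 0.18 for 3201 genes. An SD over 0.5 was found for 6 of these 75 members (8%), against 2.09% of the 3201 genes. Of all 79 rows these 6 were 7.59%, against 22.5% of all genes. RPS9, RPS10, RPL41, RPS15 and RPL3 are described here and were singled out after their values were seen. RPS9, of the small subunit, had 650.5, 144 and 279 CPM in EMEM, 509, 85.9 and 702 in LGDMEM, 87.02, 418 and 259 in HGDMEM and 158, 96.1 and 390.1 in Plasmax. RPS10 had 133, 713 and 134 CPM in EMEM, 141, 209 and 666 in LGDMEM, 555, 91.5 and 227 in HGDMEM and 184, 525 and 183 in Plasmax. RPL41, the smallest ribosomal protein, had 26.5, 107 and 97.8 CPM in EMEM, 31.6, 21.2 and 117 in LGDMEM, 108, 155 and 223 in HGDMEM and 45.3, 135 and 35.3 in Plasmax. In RPS9 the libraries of LGDMEM differed up to 8.17-fold and in RPS10 those of HGDMEM up to 6.06-fold.

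In EMEM the first library was highest for RPS9 and the second for RPS10 and RPL41. RPS15 had 2650.3, 627 and 2436 CPM in EMEM, 1584, 1017 and 886 in LGDMEM, 1923, 2083 and 1437 in HGDMEM and 1755, 982 and 1225 in Plasmax. RPL3, a core protein near the peptidyl transferase centre, had 921, 592 and 414 CPM in EMEM, 355, 372 and 898 in LGDMEM, 667, 314 and 393 in HGDMEM and 414, 669 and 421 in Plasmax. In LGDMEM the third library was the highest for RPS9, RPS10, RPL41 and RPL3, and in Plasmax the second was the highest for RPS10, RPL41 and RPL3. None of these 5 was called in any comparison, and large fold changes came with wide SEs. RPL41 differed by 1.52 ± 0.56 between HGDMEM and LGDMEM (adjusted p = 0.491, edgeR) and by −1.17 ± 0.55 between Plasmax and HGDMEM (adjusted p = 0.13, edgeR). Without the 10 rows of widest spread, the calls stayed at 9, 6 and 23 and the medians were 0.094, 0.11 and 0.18.

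**Figure D5:**
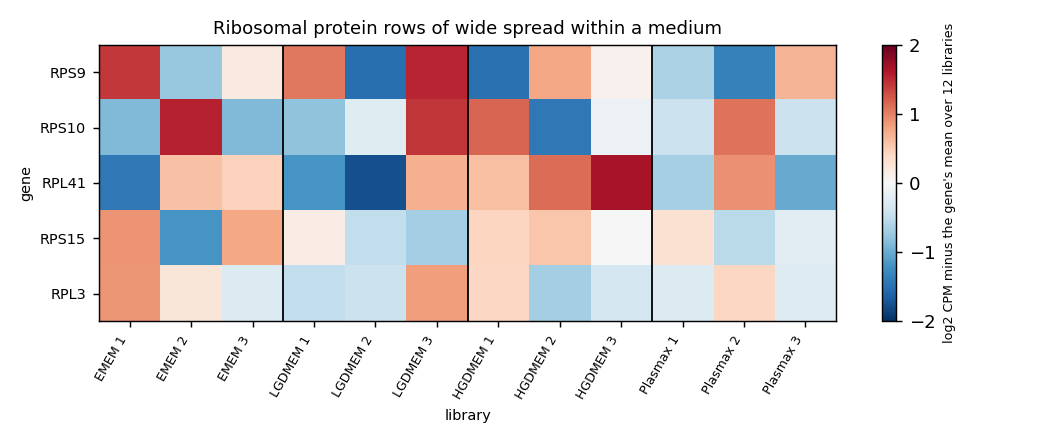
Log2 CPM of 5 ribosomal protein rows of wide within-medium spread, each minus its mean over the 12 libraries (red above, blue below; vertical lines part the media). The third LGDMEM library is the highest of its medium for RPS9, RPS10, RPL41 and RPL3, whereas in the second EMEM library RPS10 is high and RPS15 is low.

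Ribosomal protein genes have many processed pseudogenes, so 3′ reads can match more than 1 place. In GENCODE v29, for 77 of the 78 genes, 50-base words of the last 200 bases of the transcript were searched in the transcripts of other genes. No word was shared in 25 genes, which had a median of 1521 CPM and a median within-medium SD of 0.15. In 30 genes under 50% of words were shared, with 1287 CPM and an SD of 0.14. In 22 genes at least 50% were shared, with 516 CPM and an SD of 0.21. Spearman's rho over the 77 genes was −0.38 with the mean level and 0.34 with the spread, as a description only, since the points share the 12 libraries.

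The 3 members of lowest level were in the most shared class: RPL21 with 75.5%, RPL26L1 with 66.9% and RPS26 with 54.3%. The class also held the most abundant member, RPS27A, with 51.0%, and RPL9, with 91.4% and a mean of 962 CPM. RPL21 has 66 named pseudogenes, and its words recur in 38 other genes. Over the 77 genes, however, the number of named pseudogenes had a Spearman's rho of only −0.057 with the mean level and −0.114 with the spread. How the authors' counting treated such reads is not given in the sources used here, and the part of shared sequence in these levels was not tested. Against HGDMEM the called members were 8 of the 25 genes with no shared word, 9 of 30 and 6 of 22.

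The mitochondrial ribosome, which is built from other proteins, is the most like set. Its 75 measured genes had medians of −0.24, −0.34 and −0.33 in Plasmax against EMEM, LGDMEM and HGDMEM, where the cytosolic members had 0.091, 0.11 and 0.17. Of the 75, 3 rose and 19 fell against EMEM (4.00% and 25.3%, beside 10.0% and 12.1% of all genes). Against LGDMEM 2 rose and 18 fell (2.67% and 24.0%, beside 9.48% and 11.7%), and against HGDMEM 3 rose and 22 fell (4.00% and 29.3%, beside 12.8% and 14.1%). No test of the difference between the sets was made. Among the 3 other media it had 0 calls.

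For the lists that follow, values are log2 fold changes in Plasmax against EMEM, LGDMEM and HGDMEM in that order, and passed the test (adjusted p under 0.05, edgeR) unless stated otherwise. The counts stand beside the shares of all genes just given, and in lists this short 1 gene moves the share by several percent. Of the 5 ribosomal protein genes under other names, RPL36AL fell as given above. RACK1, a scaffold on the small subunit, was called only against HGDMEM, at 0.36 ± 0.11, with 1511 ± 38.5 CPM (SD, n = 3) there and 1933 ± 150.1 in Plasmax. RPSA and FAU passed no test.

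Translation factors and other messages with a TOP tract had 15 rows. Against EMEM 4 rose (26.7%, all genes 10.0%) and 1 fell (6.67%, all genes 12.1%). Against LGDMEM 3 rose (20.0%, all genes 9.48%) and against HGDMEM 4 (26.7%, all genes 12.8%), with 0 lower in both. NAP1L1, a histone chaperone, rose by 0.49, 0.67 and 0.79. EIF3H and EIF3F, of the initiation factor eIF3, rose by 0.51, 0.49 and 0.75 and by 0.84, 0.68 and 0.53. EEF2, the elongation factor that moves the ribosome along, had 0.20, 0.28 and 0.44 and passed only against HGDMEM, and EEF1B2, of the elongation factor eEF1B, had 0.39, 0.18 and 0.37 and passed only against EMEM. The 1 that fell was NPM1, a nucleolar chaperone of ribosome assembly, with −0.42, −0.36 and −0.35, of which only the first passed.

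Ribosome assembly factors had 49 rows. Against EMEM 7 rose (14.3%, all genes 10.0%) and 6 fell (12.2%, all genes 12.1%). Against LGDMEM 3 rose (6.12%, all genes 9.48%) and 5 fell (10.2%, all genes 11.7%), and against HGDMEM 5 rose (10.2%, all genes 12.8%) and 5 fell (10.2%, all genes 14.1%). These shares lay near those of all genes. The nucleolar helicase DDX21 had 0.50, 0.25 and 0.57 and SBDS, which frees the large subunit of eIF6, had 1.21, 0.73 and 0.83; both passed against EMEM and HGDMEM only. NOB1, the nuclease that matures the small subunit RNA, had −0.48, −0.66 and −0.16 and the RNA acetyltransferase NAT10 −0.53, −0.67 and −0.31, and both passed against EMEM and LGDMEM only. NOP56, of the box C/D particles, changed by −0.55, −0.66 and −0.72 and TCOF1, a nucleolar factor of ribosomal RNA transcription, by −0.55, −0.51 and −0.78.

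RNA polymerase I and its factors had 13 rows, with 2 (15.4%), 1 (7.69%) and 2 (15.4%) higher in Plasmax and 0 lower. RRN3, which brings the polymerase to the ribosomal RNA genes, rose by 0.65, 0.48 and 0.64. POLR1B had 0.55, 0.29 and 0.47 and passed against EMEM and HGDMEM only. Chaperones and importers of ribosomal proteins had 14 rows, with 1 higher in each comparison (7.14%) and 3 (21.4%), 2 (14.3%) and 5 (35.7%) lower, where 12.1%, 11.7% and 14.1% of all genes were lower. PDCD2 rose by 0.51, 0.38 and 0.48. TSR2, the chaperone of RPS26, changed by −1.09, −0.95 and −1.05. BTF3 had −0.37, −0.31 and −0.34 and BCCIP −0.60, −0.46 and −0.82, which passed against EMEM and HGDMEM only, and LTV1 had −0.36, −0.43 and −0.48 and passed against LGDMEM and HGDMEM only.

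The mTORC1 pathway and regulators of TOP messages had 21 rows, of which 4 (19.0%), 1 (4.76%) and 5 (23.8%) rose, beside 10.0%, 9.48% and 12.8% of all genes, and 0 fell. Among the members that rose, SESN2 and DDIT4 are known as inhibitors of mTORC1, and EIF4EBP1 encodes a repressor of cap-dependent translation. SESN2 had 1.56, 0.35 and 1.62, DDIT4 1.04, −0.13 and 1.52, EIF4EBP1 1.20, 0.26 and 1.20 and MAX, the partner of MYC, 0.59, 0.26 and 0.67. These 4 passed against EMEM and HGDMEM and not against LGDMEM. RPS6KB1, the S6 kinase, had 0.50, 0.74 and 0.74 and passed against LGDMEM and HGDMEM only. Messages do not report kinase activity. None of these lists had a call among EMEM, LGDMEM and HGDMEM.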

How the data were processed

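HepG2 libraries of 4 media (3 each) were made with a QuantSeq 3′ mRNA kit, per the labels' protocols. The deposited data are 1 table by gene symbol, whose values are raw counts judging by their range and totals. The submitters' processing notes name the builds hg19 and GRCh37 and, with no order or role, the tools STAR 2.7.5b, featureCounts 1.6.3, FastQC 0.72, limma 3.40.6 and cutadapt 1.16, and strand and multimapping settings are not given in the sources used here. The table had been filtered before deposit, as the third highest CPM of every row was at least 2.51, so totals are not the full depth. Of 11546 rows, 601 had no symbol (2.92% to 3.71% of counts) and were left out. Columns were matched to libraries by their names, with 0 left over.

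Tests used edgeR 4.0.16 under R 4.3.3 (quasi-likelihood, TMM scaling, all 12 libraries, no block, Benjamini-Hochberg over 10945 genes at 0.05; biological coefficient of variation 0.215). CPM uses TMM-scaled library sizes, and each SE was derived from the fold change and its F statistic. Within-medium SDs are of log2 CPM (prior count 2). No 2 libraries of a medium agreed within sampling noise. Alternatives were other scalings, filters, DESeq2 1.42.0, limma voom (3.58.1), a replicate block, fits to the 2 media compared, an adjusted p of 0.01 and each library left out.

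Replicate numbers are shared between media. Over all genes no comparison had a correlation of same-numbered deviations above 0.1 for all 3 numbers, so the libraries were taken as sharing a number only. Among the 4366 genes averaging over 5 in log2 CPM, the 3 correlations did exceed 0.1 between HGDMEM and EMEM (0.186, 0.11 and 0.124) and between HGDMEM and LGDMEM (0.246, 0.165 and 0.21). Over the 79 member rows alone they also did between Plasmax and EMEM (0.197, 0.595 and 0.105), where the block left the count of called members at 9.

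Members named with all values are those called, at most 15 by the p over the 4 media, the stalk, 5S and paralog proteins, RPS6, RPS4X and RPL13A, the 3 highest and 3 lowest by CPM, and up to 3 called genes per other list and comparison with Plasmax. The members and lists were chosen with earlier results of these data known, and values of some members are not reported here. Promoters are from RefSeq (GRCh38.p14), and transcripts for the 3′ search from GENCODE v29, with the shortest principal transcript of each gene. As the builds differ, no coordinates were taken for the counted rows.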

Additional observations from a re-analysis of the deposited data

How the results depend on the processing

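Calls against EMEM were 9, and 14 with only the 2 media in the fit, 4 at an adjusted p of 0.01 and 5 to 12 with single libraries left out. Against LGDMEM they were 6, and 10 with library size alone, 3 with only the 2 media, 3 at 0.01 and 3 to 16 with libraries left out. Against HGDMEM they were 23, and 12 at 0.01 and 13 to 28 with libraries left out. Over the 4 media they were 13, and 4 at 0.01 and 5 to 24 with libraries left out. The medians kept their sign in every alternative except LGDMEM against EMEM, where leaving out single libraries gave −0.11 to 0.048. Of 912 alternatives for single called members, 797 kept the call, 115 lost it and 0 reversed. With the replicate block, the counts were 9, 7 and 27 for Plasmax against EMEM, LGDMEM and HGDMEM, 0 in the other 3 comparisons and 17 over the 4 media, and the block moved no count by over 1.5 times. DESeq2 called 8, 8 and 25 members and limma voom 9, 9 and 28. Rows with few counts, such as RPL21, have SEs that leave only large changes detectable at this depth.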

Other observations

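Rows named as pseudogenes of members numbered 5. RPL13AP20 had 82.04, 59.1 and 25.03 CPM in EMEM, 56.8, 16.5 and 26.7 in LGDMEM, 59.3, 55.9 and 21.6 in HGDMEM and 22.04, 30.3 and 38.4 in Plasmax, so that the EMEM libraries alone spanned most of its range. RPL13AP5 had 27.2, 31.7 and 24.6 CPM in EMEM, 33.1, 24.4 and 39.4 in LGDMEM, 24.9, 23.3 and 35.96 in HGDMEM and 27.2, 31.1 and 28.3 in Plasmax, while its parent RPL13A stood at 1918 CPM. RPL31P11 had 1.46, 1.25 and 2.95 CPM in EMEM, 1.01, 1.57 and 2.26 in LGDMEM, 3.19, 2.48 and 5.92 in HGDMEM and 1.24, 0.758 and 0.827 in Plasmax, and its change of −2.004 ± 0.68 in Plasmax against HGDMEM was called (adjusted p = 0.0357, edgeR) at a level of a few CPM. RPL32P3 and RPS2P32 averaged 6.66 and 8.03 CPM in Plasmax and passed no test against any other medium.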
